A study of Mus musculus with 12 samples.

Results

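Striated muscle from Lmna-knockout mice was compared with wild-type striated muscle at the level of mRNA, gene by gene. The 12068 genes compared, of 22552 in the deposited table, averaged 1 FPKM or more over the 3 striated muscle columns and were above 0 in both columns compared. FPKM is the number of sequenced fragments per length of transcript and per sequencing depth, so levels of different genes can be set side by side. The series holds 12 RNA-seq samples of mouse muscle and cultured myoblasts that lack either of a pair of nuclear envelope proteins, lamin A/C (gene Lmna) or the lamin B receptor (gene Lbr), with their wild types.

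The mice were of strain C57Bl/6, and both genotypes came from matings of heterozygous animals. The 2 Lmna-knockout samples (genotype label LMNA_KO) were homozygous for the knockout, and the 2 controls (label wt) carried no knockout. The same wild-type muscle column also served 2 Lbr-knockout samples (label LBR_KO), whose levels are given below for context only. According to the design, wild-type animals were taken from the knockout litters, 1 per litter, so the wild-type column is not matched to the Lmna litter alone. The labels give no age, no sex, no name of the muscle and no account of which part of Lmna was deleted, and nothing in them restricts the knockout to a tissue. Total RNA was extracted from whole tissue. The labels name a pair of library kits for the samples numbered 1 to 6 and 7 to 12, without saying which numbers are muscle.

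Each muscle group has a single deposited column that stands for its 2 samples. There is therefore no spread within a group, no error on any value below and no test. A gene is said to have risen or fallen where log2(FPKM + 1) differed by at least 1, that is by 2-fold or more, and for all other genes only the values are given. The added 1 FPKM makes the change of a weakly expressed gene look smaller than it was.

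Lamins A and C are intermediate filament proteins that line the inner face of the nuclear envelope and join it, through emerin, SUN proteins and nesprins, to chromatin and to the cytoskeleton. They are abundant in stiff, contracting tissues. Human LMNA mutations cause Emery-Dreifuss and limb-girdle muscular dystrophies, dilated cardiomyopathy and partial lipodystrophy, and mice without Lmna develop muscular dystrophy and fail to thrive.

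Across all genes compared, 233 genes (1.93%) rose in Lmna-knockout muscle and 92 (0.762%) fell, together 2.69% of the genes. The median difference was 0.13, with quartiles of -0.09 and 0.35, and 7910 genes (65.5%) lay above wild type. Rises made up 71.7% of the changed genes as deposited, 56.8% once the median of 0.13 was subtracted (172 rises, 131 falls), and 56.1% after quantile normalization of the muscle columns (165 rises, 129 falls). Of the 325 changed genes, 96 stayed below 5 FPKM in both columns, and 63 were small RNAs, predicted genes or pseudogenes by name. The filter left out 10411 genes by their mean, and 73 more were listed at 0 in at least 1 of the columns. Nt5c1a, with a mean of 1.00 FPKM, was the last gene inside the filter.

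**Figure D1:**
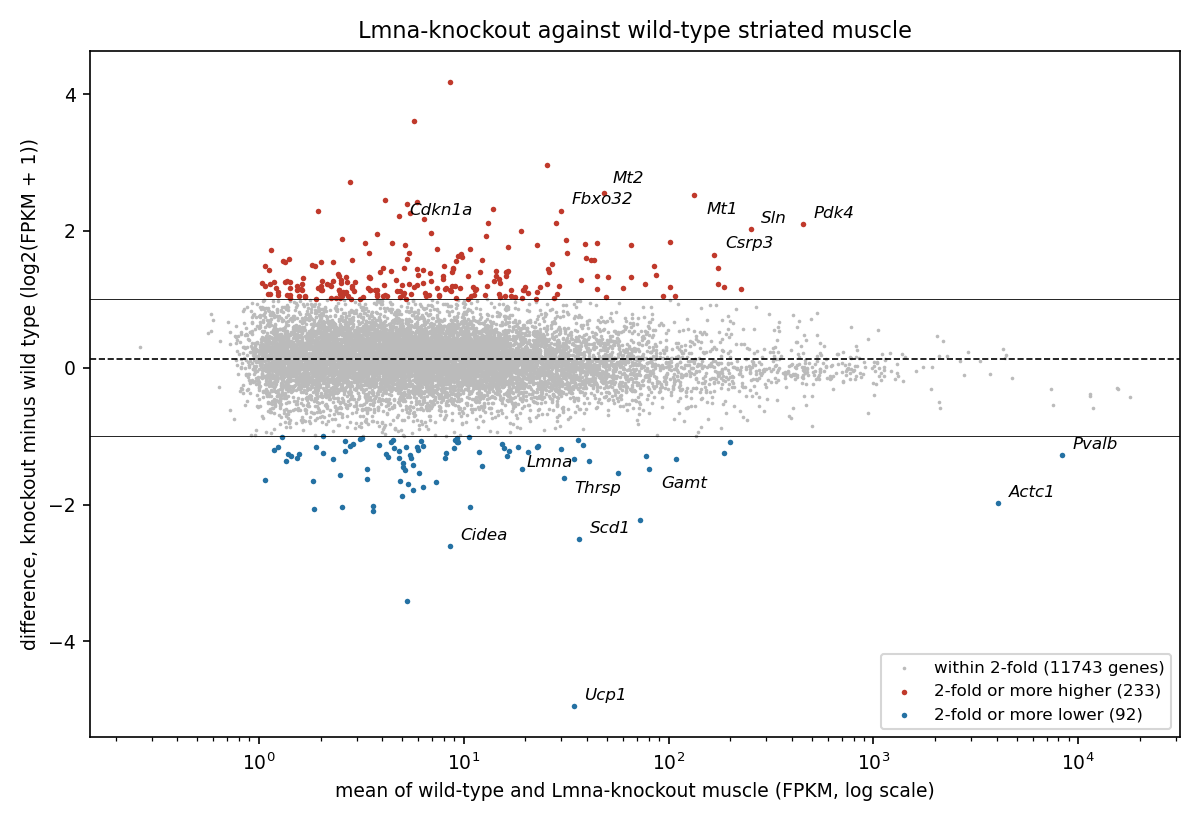
Each point is 1 of 12068 genes, placed by its mean FPKM in wild-type and Lmna-knockout muscle (x axis, log scale) and by the knockout minus wild-type difference in log2(FPKM + 1) (y axis). The 233 genes at or above 1 are red and the 92 at or below -1 are blue, solid lines mark 2-fold, and the dashed line marks the median of 0.13. Pdk4, Mt1 and Sln stand out among rises at high level, and Actc1 and Pvalb among falls.

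The label of the knockout was looked at first. Lmna was at 59.5 FPKM in wild-type muscle, 22.6 in Lmna-knockout and 62.8 in Lbr-knockout muscle, a fall of 1.36 on the log2 scale. Transcript was thus present in the knockout column at 0.38 times the wild-type level, and since the deleted part is not given, this value does not show what the remaining transcript encodes. Lmnb2, which encodes the B-type lamin B2, also fell, from 9.13 to 3.59 FPKM (log2 difference -1.14). Its level was 6.45 FPKM in Lbr-knockout muscle.

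The other envelope genes stayed within 2-fold. Of 19 lamina and inner nuclear membrane genes, 0 rose and 2 fell (Lmna and Lmnb2), and their median was 0.10. Lmnb1, the other B-type lamin, was at 5.77 FPKM in wild type and 4.25 in the knockout. Emd, which encodes the lamin-binding protein emerin, was at 3.73 and 2.22 FPKM. On the other side of 0 lay Tmem43, a partner of emerin, at 12.2 and 20.1 FPKM, and Tor1aip1, which encodes the inner membrane protein LAP1, at 24.0 and 35.2 FPKM. Zmpste24, the protease that matures prelamin A, was at 13.7 and 12.0 FPKM. All 5 SUN and nesprin genes compared lay above wild type, as did 65.5% of all genes compared, and none changed. Their median was 0.28 as deposited and 0.15 after centring on the all-gene median. Sun2 had the largest difference, at 14.0 and 22.4 FPKM.

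Genes of muscle atrophy, the programme of protein breakdown that muscle runs in fasting, disuse and disease, lay almost all on the high side. Of 27 compared, 5 rose and 0 fell, 26 were above wild type, and the median difference was 0.56 against 0.13 over all genes. Fbxo32 encodes atrogin-1, a ubiquitin ligase of wasting muscle. Its level was 9.41 FPKM in wild type, 50.1 in Lmna knockout and 14.5 in Lbr knockout, a log2 difference of 2.30. Klf15, a glucocorticoid-induced regulator of amino acid breakdown, was at 4.13, 15.3 and 5.79 FPKM in the same order (1.67). Sesn1, a stress-induced inhibitor of the growth kinase mTORC1 and also a p53 target, was at 27.3, 61.9 and 38.9 FPKM (1.15). In all 3 genes the Lmna-knockout column was the highest.

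Several well-known members of the programme did not reach 2-fold on the log2(FPKM + 1) scale. Trim63, which encodes the ubiquitin ligase MuRF1, was at 49.2 FPKM in wild type and 73.3 in the knockout (0.56). Foxo3, a transcription factor that drives atrophy genes, was at 4.69 and 10.05 FPKM (0.96, though above 2-fold without the added 1 FPKM), and Bnip3, a mitophagy receptor, at 67.9 and 136 FPKM (0.99). The translation inhibitor gene Eif4ebp1 was at 94.8 and 140 FPKM. Mstn was the single member below wild type. It encodes myostatin, a secreted inhibitor of muscle growth, and was at 23.1 and 13.5 FPKM (-0.73).

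The metallothioneins Mt1 and Mt2, small cysteine-rich proteins that bind zinc and are induced by metals, glucocorticoids and oxidants, had the largest rises in this list. Mt1 was at 38.8 FPKM in wild type, 227 in Lmna knockout and 82.7 in Lbr knockout (log2 difference 2.52). Mt2 was at 13.4, 83.2 and 31.8 FPKM (2.55). Both genes kept the same order of columns, with wild type lowest and Lmna knockout highest. They were the only genes to rise among the 8 metallothionein and zinc transporter genes compared, whose median was 0.19.

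Mt1 and Mt2 are neighbours on chromosome 8 that are known to be induced together through metal response elements, so sequence around the RefSeq start of each is shown. The windows run from 250 bases before to 20 bases after the RefSeq start, on the plus strand of GRCm38.p6, at chr8:94178839-94179108 for Mt1 and chr8:94172368-94172637 for Mt2, and begin 6.47 kb apart. Sequences are those of RefSeq, and this build is not the one named in the submitters' notes, so no value was placed by coordinate. Capitals mark matches to the core of the metal response element, written TGCACNC or TGCGCNC and searched on both strands.
Mt1: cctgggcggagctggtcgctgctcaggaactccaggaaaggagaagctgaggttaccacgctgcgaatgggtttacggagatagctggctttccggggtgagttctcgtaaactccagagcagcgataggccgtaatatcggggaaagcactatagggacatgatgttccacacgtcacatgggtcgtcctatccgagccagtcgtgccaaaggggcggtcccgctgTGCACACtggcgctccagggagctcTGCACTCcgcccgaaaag
Mt2: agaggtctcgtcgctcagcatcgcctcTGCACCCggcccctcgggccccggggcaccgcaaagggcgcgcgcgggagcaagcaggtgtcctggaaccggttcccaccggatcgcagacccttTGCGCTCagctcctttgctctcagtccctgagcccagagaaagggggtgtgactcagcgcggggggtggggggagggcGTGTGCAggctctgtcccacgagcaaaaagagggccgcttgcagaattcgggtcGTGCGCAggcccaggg
The Mt1 window held 2 matches, both on the plus strand, and the Mt2 window 4, of which 2 were on each strand. Matches outside these windows of 270 bases were not counted, so the numbers do not compare the whole promoters. At least 1 match was found in 23.2% of all 32851 promoter windows, in 32.3% of the 10942 windows of genes compared, in 21.99% of the 191 windows of genes that rose and in 26.3% of the 76 windows of genes that fell. At least 3 matches were found in 1.59% of all windows, 2.72% of those of genes compared, 1.57% of those of genes that rose and 1.32% of those of genes that fell. The windows covered 154 of the 233 rising genes and 59 of the 92 falling genes. A match to these letters describes the sequence and does not show binding.

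Genes of fatty acid use also lay mostly on the high side. Of 27 genes of fasting and fatty acid oxidation, 6 rose, 0 fell and 25 lay above wild type, and the median was 0.65. Pdk4 encodes the kinase that shuts off pyruvate dehydrogenase and so spares glucose when fat is burned. It was at 171 FPKM in wild type, 734 in Lmna knockout and 178 in Lbr knockout (log2 difference 2.10), so that the Lmna-knockout column stood apart from both others. Acot2 and Acot1, which encode mitochondrial and cytosolic acyl-CoA thioesterases, were at 6.88, 25.9 and 8.83 FPKM (1.77) and at 2.86, 11.9 and 3.18 FPKM (1.74). These neighbouring genes are close copies, and how shared fragments were divided between them is not known.

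The other 3 genes of this list that rose were Angptl4, Plin5 and Cd36. Angptl4, a secreted inhibitor of lipoprotein lipase, was at 20.5 FPKM in wild type, 63.2 in Lmna knockout and 37.9 in Lbr knockout (1.58). Plin5, a lipid droplet coat protein of oxidative tissue, was at 8.48, 24.1 and 13.4 FPKM (1.40). Cd36, the fatty acid transporter, was at 140, 311 and 180 FPKM (1.15). In each of the 3 genes the Lbr-knockout level lay between the others. The enzymes of β-oxidation shared the direction without reaching 2-fold: Cpt1b, which lets fatty acids into mitochondria, was at 52.2 and 97.3 FPKM (0.89), the dehydrogenase gene Acadl at 139 and 224 FPKM (0.69), and Acadvl at 122 and 177 FPKM (0.53). The abundant fatty acid carrier Fabp3 was at 856 and 1255 FPKM (0.55).

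Acss1 and Slc27a1 belong to the same metabolism but were in none of the lists used here. Acss1, which encodes a mitochondrial acetyl-CoA synthetase, was among the 12 largest rises, at 10.02, 46.6 and 16.3 FPKM (2.11). Slc27a1, a fatty acid transport protein named after its values were seen, was at 14.7, 49.0 and 27.5 FPKM (1.68).

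Fat synthesis did not follow. Among 20 genes of fatty acid and triglyceride synthesis, 1 rose and 2 fell, with a median of -0.02. Scd1 encodes stearoyl-CoA desaturase, which makes monounsaturated fatty acids. It was at 63.0 FPKM in wild type, 10.3 in Lmna knockout and 66.9 in Lbr knockout, a log2 difference of -2.51. Thrsp, a lipogenic regulator also called Spot 14, was at 47.2, 14.7 and 45.0 FPKM (-1.62). For both genes the wild-type and Lbr-knockout columns were close and the Lmna-knockout column was low. Fasn, the fatty acid synthase gene, was at 4.81 and 5.01 FPKM (0.05). The gene that rose was Acacb, whose product makes the malonyl-CoA that restrains Cpt1b. It went from 17.7 to 37.1 FPKM (1.03), and its difference was 0.90 after centring on the median and 0.95 after quantile normalization, below 2-fold. Of 19 cholesterol synthesis genes, Mvd alone rose, from 2.89 to 7.32 FPKM, and none fell (1.10, and 0.97 after centring, list median -0.04).

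Glucose metabolism and the respiratory chain changed little. Of 27 glycolysis and glycogen genes, 1 rose and 0 fell (median 0.02). The 1 was Fbp2, the muscle fructose-bisphosphatase, at 37.1 FPKM in wild type, 94.7 in Lmna knockout and 57.5 in Lbr knockout (1.33). None of 51 oxidative phosphorylation subunit genes changed, with a median of -0.04 and a range from -0.32 to 0.46.

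Both genes of creatine synthesis fell. Gatm and Gamt encode the enzymes that act in turn to make creatine, the phosphate buffer of muscle. Gatm was at 49.7 FPKM in wild type, 19.1 in Lmna knockout and 48.3 in Lbr knockout (log2 difference -1.33). Gamt was at 118, 41.8 and 110 FPKM (-1.48). In both, only the Lmna-knockout column was low. The other 9 of 11 creatine and energy transfer genes did not change (list median -0.13). The muscle creatine kinase gene Ckm was at 4977 and 4488 FPKM, and the creatine transporter gene Slc6a8 at 15.7 and 22.8 FPKM. Myoglobin (Mb), the oxygen store, was at 481, 294 and 282 FPKM, about equally low in both knockout columns.

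Glucocorticoid-responsive genes were among the rises. Of 22 genes of the circadian clock and the glucocorticoid response, 5 rose and 0 fell (median 0.50). Besides Klf15, these were Fkbp5, a co-chaperone of the glucocorticoid receptor, at 2.15 FPKM in wild type, 8.46 in Lmna knockout and 4.17 in Lbr knockout (1.59), and Glul, the glutamine synthetase gene, at 28.2, 72.7 and 37.4 FPKM (1.33). Per1, a clock repressor with a glucocorticoid-induced promoter, was at 7.83 and 17.5 FPKM (1.07), and the transcription factor gene Zbtb16 at 9.51 and 20.6 FPKM (1.04). Per1 and Zbtb16 fell just short of 2-fold after centring (0.94 and 0.91). Other targets of the receptor differed in sign: Tsc22d3 was at 31.96 and 45.1 FPKM, and Sgk1 at 86.5 and 59.4 FPKM. The clock activator gene Arntl was at 3.38 and 6.56 FPKM and the clock output gene Dbp at 8.24 and 5.10 FPKM.

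Some targets of p53, the DNA damage and stress response factor, rose, while the list as a whole was mixed. Of 22 compared, 3 rose and 0 fell, and the median was 0.26. Above wild type lay 16 of the 22, beside 65.5% of all genes compared. Cdkn1a, which encodes the cell cycle inhibitor p21, was at 4.33 FPKM in wild type, 22.1 in Lmna knockout and 7.76 in Lbr knockout (2.12). Fas, a death receptor, was at 3.77, 12.3 and 6.24 FPKM (1.48). Sesn1, counted above as well, was the other. The p53 target Ccng1 was on the opposite side, at 357 and 230 FPKM (-0.63).

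Cell cycle genes were lower in small steps. Of 38 genes of the cell cycle, mitosis and replication, 34 lay below wild type, whereas 65.5% of all genes compared lay above it. The list median was -0.43, but as deposited only Top2a fell, from 8.76 to 3.62 FPKM (-1.08). Mki67, the proliferation marker, was at 24.7 FPKM in wild type, 13.0 in Lmna knockout and 21.7 in Lbr knockout (-0.88). Its fall passed 2-fold after centring on the all-gene median. Pcna, the replication clamp, was at 39.5, 29.1 and 33.5 FPKM (-0.43). Most of these genes were below 10 FPKM in every column. Whole muscle holds several kinds of dividing cell, and in such tissue fewer cells of a type and less RNA per cell cannot be told apart.

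Genes induced by stretch and mechanical load were split. Of 12 compared, 3 rose and 0 fell, with a median of 0.38. Csrp3 encodes muscle LIM protein, a Z-disc component. It was at 80.2 FPKM in wild type, 255 in Lmna knockout and 48.1 in Lbr knockout (1.65). Ankrd1, the cardiac ankyrin repeat protein that binds titin, was at 4.30, 15.2 and 2.31 FPKM (1.61), and its relative Ankrd2 at 36.7, 83.8 and 32.3 FPKM (1.17). In all 3 the Lbr-knockout column lay below wild type, so only the Lmna-knockout column was high. Ankrd23, of the same repeat family, was on the other side at 286 and 174 FPKM (-0.71), as was the actin-binding gene Xirp2 at 235 and 148 FPKM (-0.66).

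Sarcolipin stood alone among the calcium handling genes. Sln encodes a small inhibitor of the sarcoplasmic reticulum calcium pump, and was at 98.9 FPKM in wild type, 406 in Lmna knockout and 261 in Lbr knockout (2.03). It was the 1 gene of 20 that rose, with none falling and a median of 0.09. The pump gene Atp2a1 was at 3874 and 4709 FPKM and the release channel gene Ryr1 at 168 and 236 FPKM. Of 17 acetylcholine receptor and denervation genes none changed (median 0.25). Myog, which rises on denervation, was at 42.9 and 28.7 FPKM.

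**Figure D2:**
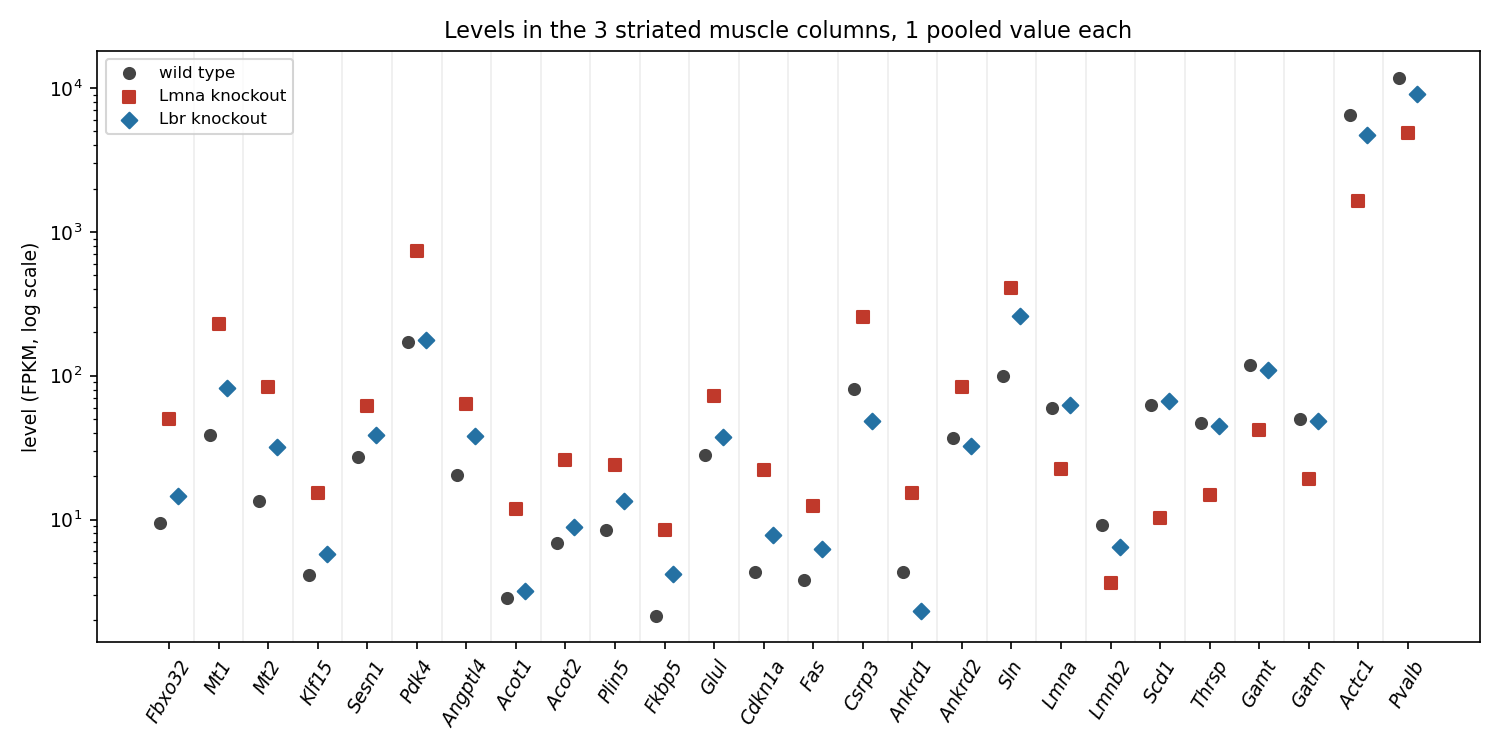
FPKM on a log scale (y axis) of 26 named genes (x axis) in wild-type (circle), Lmna-knockout (square) and Lbr-knockout (diamond) muscle, 1 pooled value each without error bars. The Lmna-knockout square is the highest of the 3 from Fbxo32 to Sln and the lowest from Lmna to Pvalb.

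Among contractile genes the changes were few and concerned particular isoforms. Actc1, the cardiac α-actin that fetal and regenerating skeletal muscle also uses, was at 6501 FPKM in wild type, 1642 in Lmna knockout and 4741 in Lbr knockout, a log2 difference of -1.98. It was the only one of 11 developmental isoforms to change (median -0.06). The embryonic and perinatal myosin genes Myh3 and Myh8 were both above wild type, at 29.8 and 38.4 FPKM and at 481 and 618 FPKM. Pvalb encodes parvalbumin, the calcium buffer of fast fibres, and was at 11835, 4889 and 9095 FPKM (-1.28). It was the only one of 14 adult fast fibre genes to fall. After quantile normalization its difference was -0.39, within 2-fold. That scaling gives equal ranks equal values, and so can hide a fall shared by the most abundant genes.

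The remaining fast fibre genes stayed within 2-fold and were split in direction. Of all 14 in the list, 10 lay below wild type and 4 above. After Pvalb the lowest was Mybpc2, at 1153 and 731 FPKM (-0.66), and the highest was Myh1 (0.39). Myl1 was at 20559 FPKM in wild type and 15323 in the knockout, Myh4, the fastest myosin, at 13015 and 9783 FPKM, and Myh1 at 1898 and 2495 FPKM. The list median was -0.35 as deposited, -0.47 after centring and 0.00 after quantile normalization. Many of these genes were among the most abundant of each column. A fall they shared could therefore not show after quantile normalization, and its value of 0.00 decides nothing about the direction. Among 11 slow fibre genes only Myl2, the slow regulatory light chain, fell, from 270 to 127 FPKM (-1.08, list median -0.13). Of 30 sarcomere and Z-disc genes, Csrp3 alone rose and none fell (median 0.11). The 10 most abundant genes of each column took 26.5% of the summed FPKM in wild type, 20.2% in Lmna knockout and 23.6% in Lbr knockout. The part of this share in the lower values of the contractile genes was not tested.

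Muscle structure and matrix lists were close to wild type. None of 25 dystrophin complex and adhesion genes, 18 myogenic regulators, 18 satellite cell and Notch genes or 18 collagen genes changed, with medians of 0.08, 0.21, 0.24 and -0.02. Col1a1, a chain of the main fibrillar collagen, was at 453 FPKM in wild type and 459 in the knockout. Single genes moved in other matrix and growth factor lists: 1 of 32 matrix genes rose, 1 of 15 metalloproteinase and inhibitor genes rose, and of 33 IGF and TGF-β family genes 1 rose and 1 fell (medians 0.15, 0.24 and 0.09). Timp4, an inhibitor of matrix proteases, was at 5.66, 18.8 and 6.76 FPKM (1.57). Igfbp5, the muscle IGF-binding protein, fell from 156 to 60.9 FPKM, with 196 FPKM in Lbr knockout (-1.34). Acvr2b, a receptor for myostatin and activin, rose from 0.680 to 3.93 FPKM (1.55), low levels in both columns. Spp1, which encodes osteopontin, was at 24.9, 65.0 and 1.22 FPKM (1.35).

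Stress and growth programmes of other kinds showed little. None of 18 unfolded protein response chaperone genes, 16 integrated stress response genes and 13 heat shock chaperone genes changed (medians -0.14, 0.14 and 0.04). Of 53 cytosolic ribosomal protein genes, only Rpl30 fell, from 18.4 to 6.14 FPKM (-1.44), and the next lowest difference was -0.31. Ribosomal protein genes have many processed copies, so this value is uncertain. Zfp36, an mRNA-destabilizing protein of the immediate early genes, was the 1 of 17 such genes to rise (1.05), and it did not pass after centring (0.92). Nnat, which encodes the imprinted gene neuronatin, fell from 31.7 to 13.6 FPKM and was at 109 FPKM in Lbr knockout (-1.16). It was the 1 of 19 imprinted genes to change.

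**Figure D3:**
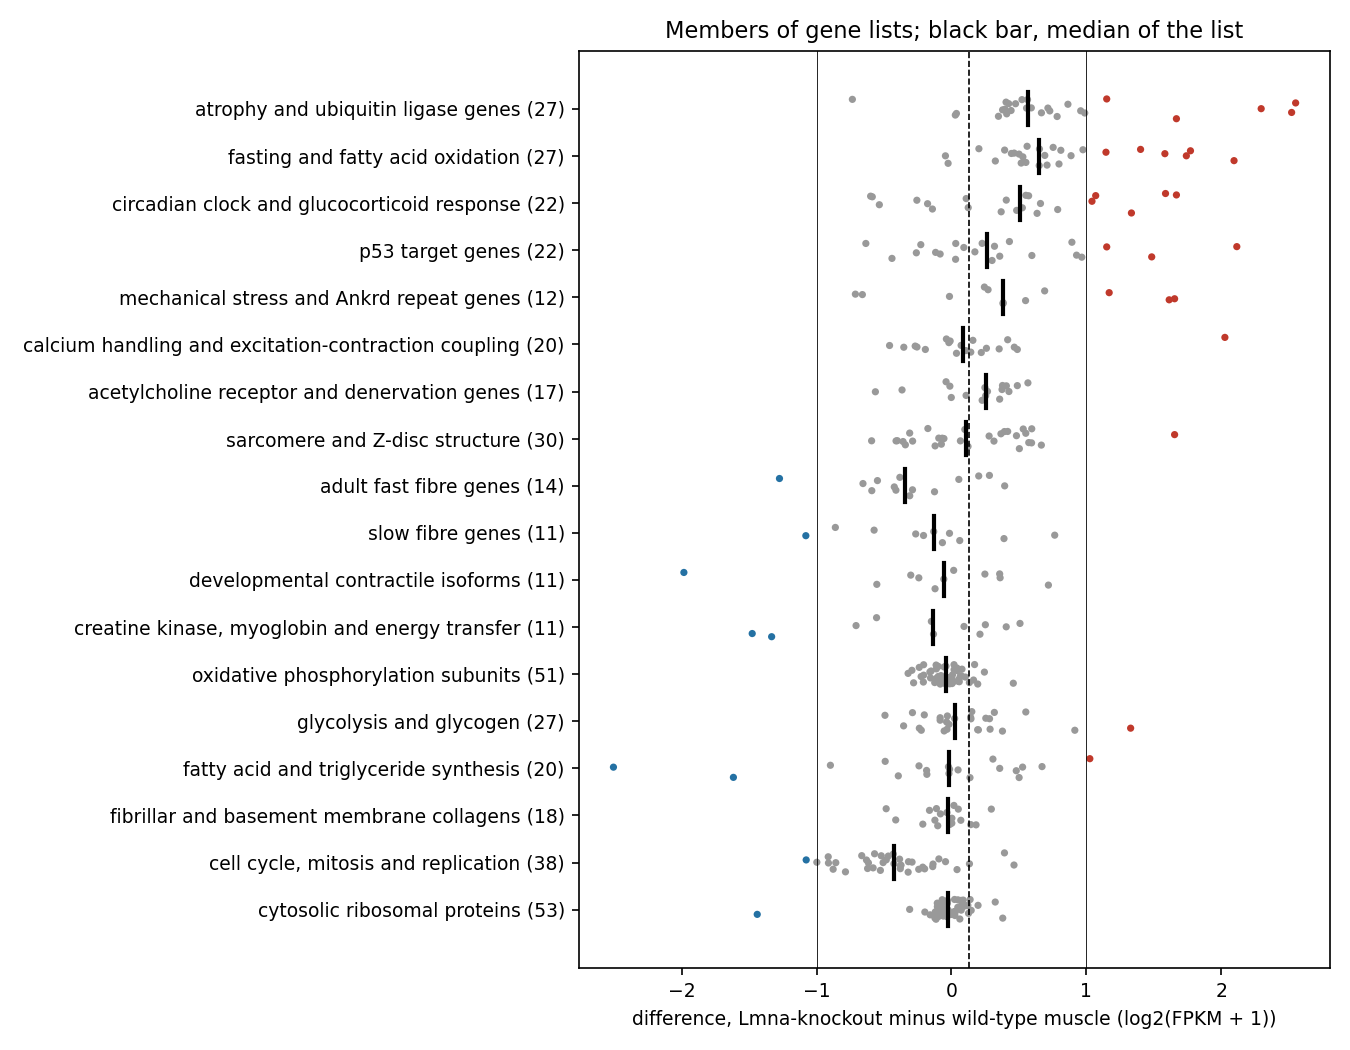
Knockout minus wild-type difference in log2(FPKM + 1) (x axis) for the members of 18 gene lists (rows, number compared in brackets). Each point is a gene, red where it rose and blue where it fell, black bars are list medians, solid lines mark 2-fold and the dashed line the all-gene median of 0.13. The medians of the fasting list (0.65) and the atrophy list (0.56) lie farthest to the right, and that of the cell cycle list (-0.43) farthest to the left.

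Marker genes of the cells that whole muscle can hold were measured beside these lists. The 13 skeletal muscle markers summed to 96635 FPKM in wild type, 72103 in Lmna knockout and 90407 in Lbr knockout, none at 0. The tissue thus carried its label in every column. The 13 cardiac muscle markers summed to 41.6, 32.2 and 41.2 FPKM. Nppb, a natriuretic peptide, was listed at 0 in all 3 columns, and Myl7, the atrial light chain, at 0 in wild type and Lmna knockout. Myh6, the cardiac myosin, was the cardiac marker that fell, from 22.2 to 9.30 FPKM (-1.17).

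White blood cell markers had higher sums in both knockout columns. The 16 neutrophil markers summed to 72.3 FPKM in wild type, 241 in Lmna knockout and 174 in Lbr knockout. Of 11 compared, 5 rose and none fell (median 0.96), beside 1.93% rising over all genes. Mpo and Mmp8, at 0.655 and 0.680 FPKM in wild type, passed the filter through higher values in Lmna knockout (1.79 and 2.04 FPKM). The count and median of these markers therefore only describe the genes that passed. The alarmin genes S100a8 and S100a9 were at 28.8 and 103 FPKM (1.80) and at 19.2 and 70.7 FPKM (1.83). Lcn2, an iron-trapping protein that other stressed cells also make, was at 1.24, 9.70 and 3.45 FPKM (2.26), and Retnlg at 1.06, 8.57 and 4.91 FPKM (2.21). The neutrophil granule genes Mpo and Ltf stayed below 3 FPKM in every column. In the Lbr-knockout column S100a8 and S100a9, at 90.7 and 56.8 FPKM, made up most of the sum, and the granule gene Camp (11.7, 23.7 and 5.44 FPKM) and the protease gene Mmp9 (2.16, 4.26 and 0.546 FPKM) were there below wild type.

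Macrophage and lymphocyte markers had their highest sums in the Lbr-knockout column, while single markers such as Lgals3 (1.33, 3.95 and 2.998 FPKM) and Cd2 (0.934, 4.77 and 4.12 FPKM) were highest in Lmna knockout. The 23 macrophage and leukocyte markers summed to 139 FPKM in wild type, 221 in Lmna knockout and 260 in Lbr knockout. Of 19 compared, 5 rose: Coro1a, Cd74, Ptprc, Lgals3 and Laptm5, at 1.45, 1.40, 1.11, 1.09 and 1.08, the last 3 within 2-fold after centring. The 23 B and T lymphocyte markers summed to 40.4, 71.9 and 104 FPKM, and 6 of 19 rose (median 0.84), of which Cd79b and Ltb were within 2-fold after centring. The median wild-type level of these 19 was 0.934 FPKM, so most passed the filter only through the knockout columns. Pax5, at 1.20, 0.851 and 0.405 FPKM, was left out by it. The count and median of this list therefore only describe the genes that passed. Cd37, a leukocyte tetraspanin, was at 0.584, 7.71 and 7.64 FPKM (2.46). Ccl19, a chemokine of lymphoid tissue, was at 1.70, 11.2 and 21.7 FPKM (2.17). Of 23 interferon response and MHC class I genes none changed, with 21 above wild type, beside 65.5% of all genes compared. The median of these 23 was 0.52, and 0.38 in Lbr knockout. Their median wild-type level was 2.20 FPKM, where the added 1 FPKM makes differences smaller. Of 15 complement genes C3 and C4b rose and none fell (median 0.34, and 0.51 in Lbr knockout). C3 was at 2.05 FPKM in wild type, 6.09 in Lmna knockout and 10.2 in Lbr knockout (1.22). C4b was at 0.789, 3.29 and 4.68 FPKM (1.26), so both were highest in Lbr knockout. The part of blood cells in the other gene lists was not tested.

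Fat markers were uneven. The 17 adipocyte markers summed to 841 FPKM in wild type, 1312 in Lmna knockout and 1239 in Lbr knockout, with 3 rises and 3 falls (median 0.04). The rises were Pnpla2, the main triglyceride lipase, at 93.1, 257 and 139 FPKM (1.46), the lipid droplet gene Plin4 at 45.7, 109 and 80.6 FPKM (1.23), and the glycerol channel gene Aqp7 at 10.3, 23.7 and 17.2 FPKM (1.13). Muscle fibres express these genes too. The adipocyte hormone gene Adipoq was at 10.8, 9.14 and 21.0 FPKM. Ucp1, the uncoupling protein that defines brown fat, was at 67.8 FPKM in wild type, 1.23 in Lmna knockout and 3.61 in Lbr knockout, the largest fall among named genes (-4.95). Cidea, a brown fat lipid droplet gene, was at 15.5, 1.71 and 1.20 FPKM (-2.60). Both were thus high in the wild-type column alone. The other 6 of 8 brown fat markers compared did not change, the list median was 0.22, and the 12 listed genes summed to 3520.5 FPKM in wild type and 4090 in Lmna knockout. Most of both sums came from Cox8b (1728 and 2375 FPKM) and Cox7a1 (1643 and 1596 FPKM). These 2 are also among the oxidative phosphorylation subunits above, so the sums say little about brown fat. Cpt1b, in the brown fat list as well, was above wild type (0.89). In the pattern of Ucp1, the 14 pancreas acinar genes summed to 26.5, 3.16 and 1.98 FPKM. The part of other tissue in the wild-type column was not tested.

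None of 20 endothelial or 16 fibroblast markers changed, with summed levels of 846 and 1131 FPKM and of 1892 and 1905 FPKM in wild type and Lmna knockout. Schwann cell and myelin markers summed to 490, 646 and 1029 FPKM and erythroid markers to 4521, 3742 and 4877 FPKM. Among smooth muscle and pericyte markers, summing to 1366, 1479 and 1420 FPKM, Acta2, the smooth muscle actin, fell from 262 to 109.96 FPKM (-1.24). Tendon markers summed to 251, 280 and 155 FPKM. Cartilage and bone markers summed to 87.9, 163 and 21.0 FPKM, and Bglap, the bone protein osteocalcin, was at 21.3, 65.1 and 1.90 FPKM (1.57). Bglap and its neighbouring copy Bglap2 were the 2 of 11 that rose, none fell, and the list median was 0.19. Other members lay lower in Lmna knockout, such as the bone matrix gene Ibsp (-0.49) and the cartilage collagen gene Col2a1 (-0.71). Spp1, above, is also a bone gene and followed the same order of columns. Keratinocyte markers summed to 17.2, 24.2 and 24.6 FPKM and liver-secreted protein genes to 26.6, 31.3 and 57.2 FPKM.

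**Figure D4:**
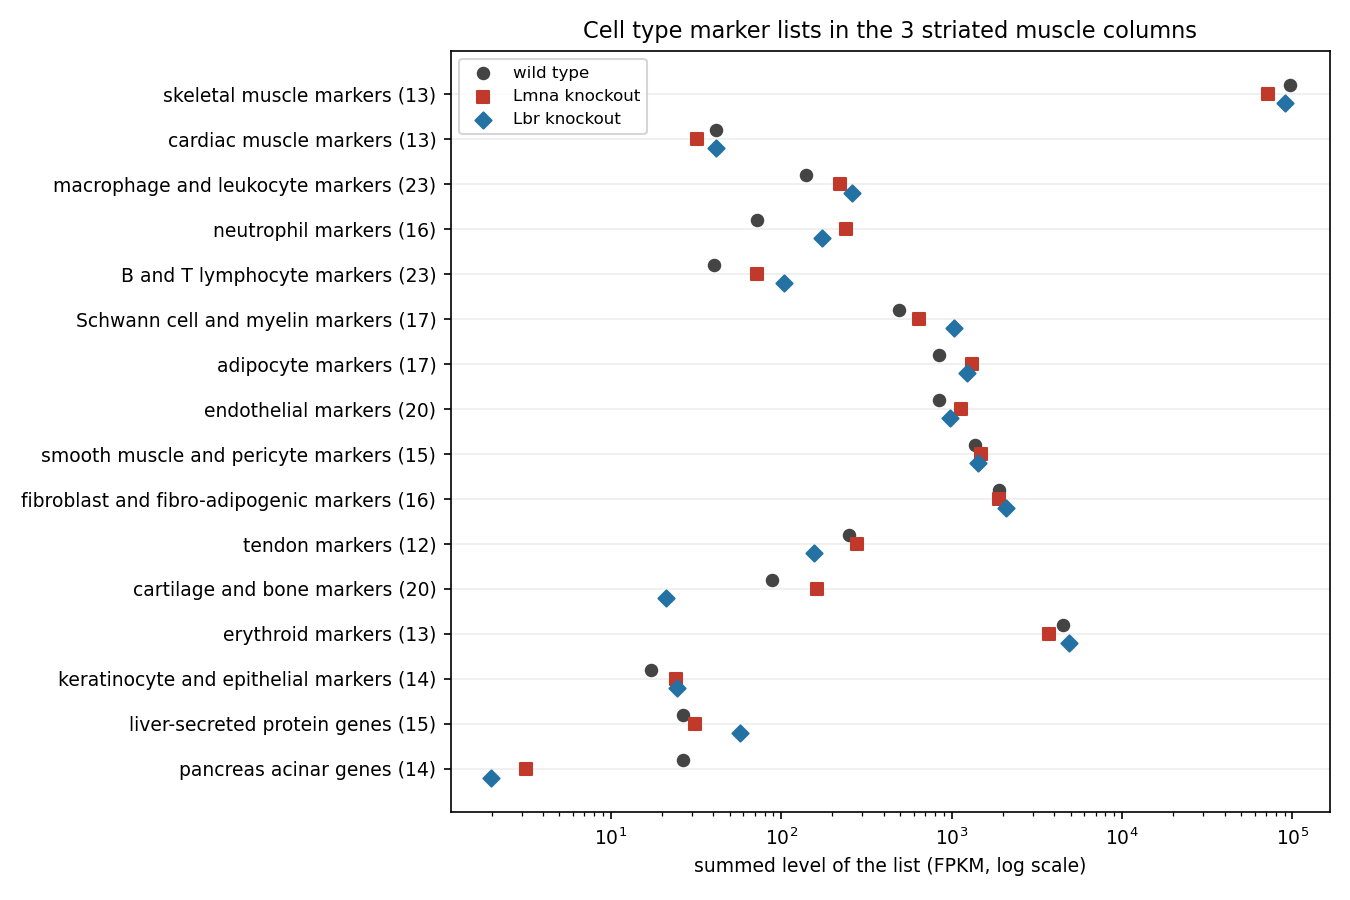
Summed FPKM on a log scale (x axis) of 16 cell type marker lists (rows, number of genes in brackets) in wild-type (circle), Lmna-knockout (square) and Lbr-knockout (diamond) muscle, 1 pooled value each. Neutrophil markers are highest in Lmna knockout (241 FPKM), lymphocyte markers in Lbr knockout (104 FPKM), and pancreas acinar genes in wild type (26.5 FPKM).

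The columns also differed in a transcript tied to sex. Xist, the RNA of X inactivation in females, was at 0.0153 FPKM in wild type, 11.4 in Lmna knockout and 0.0988 in Lbr knockout (3.61). The Y-linked gene Ddx3y was present in all 3 columns, at 19.5, 27.5 and 16.6 FPKM, as was Eif2s3y, at 47.9, 52.5 and 37.9 FPKM. Of the 3 columns, only Lmna knockout held Xist above 1 FPKM, beside these Y-linked transcripts. The labels give no sex, and the part of sex in the differences above was not tested.

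Further genes with large falls belonged to no common list. Cited4, a transcriptional co-activator, was at 17.9 FPKM in wild type, 3.62 in Lmna knockout and 9.43 in Lbr knockout (-2.04). Fbxl22, an F-box protein of the Z-disc, was at 11.6, 2.95 and 10.1 FPKM (-1.68), and Tuba8, an α-tubulin of muscle and testis, at 84.7, 28.6 and 64.5 FPKM (-1.53). Ces1d, a carboxylesterase with triglyceride lipase activity, was at 7.97, 1.84 and 8.23 FPKM (-1.66). Orm1, an acute phase plasma protein, was at 6.38, 0.816 and 3.35 FPKM (-2.02). Of the 5, Ces1d and Fbxl22 had Lbr-knockout levels nearest to wild type.

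The same knockout in cultured myoblasts gave a different picture of these lists. Knockout myoblasts were set against the wild-type myoblasts of the Lmna litter (11462 genes, 138 or 1.2% changed) and, beside that, against those of the Lbr litter. The knockout myoblast column stands for 2 samples, and each of the wild-type myoblast columns is 1 sample. The atrophy list had a median of 0.12 against the own litter and 0.22 against the other, and the fasting list 0.05 and 0.29, where muscle had 0.56 and 0.65. Mt1 differed by 0.22 against the own litter and by 0.53 against the other. Pdk4 differed by 0.08 and 1.13, and Cdkn1a by 0.14 and 1.01, so that both reached 2-fold against the other litter's wild type only. Csrp3, which rose in muscle, was lower in knockout myoblasts (-2.54 and -1.71), and Actc1 was lower in both settings (-1.61 and -0.54 in myoblasts). Adult fast fibre genes had medians of -2.08 and -1.54 in myoblasts against -0.35 in muscle. The myoblast columns also differed in sex-linked transcripts, with Xist at 1.59 and 4.52 and Eif2s3y at -0.70 and -1.80 against the own and the other litter. The part of sex in the myoblast differences was not tested. The difference between muscle and myoblasts was not tested either, since each group has 1 column.

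**Figure D5:**
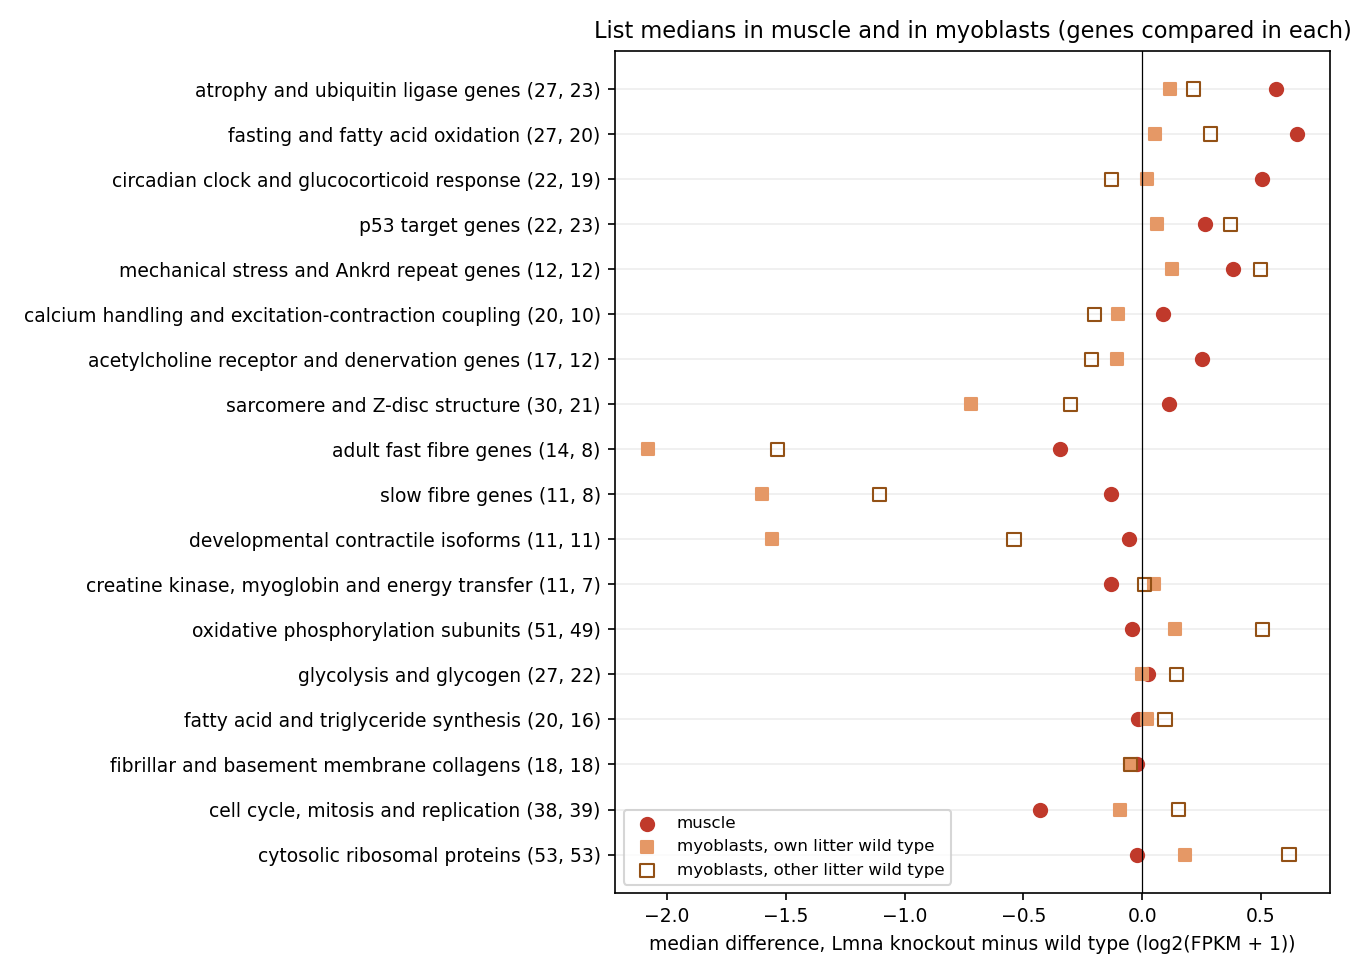
Median Lmna-knockout minus wild-type difference in log2(FPKM + 1) (x axis) of 18 gene lists (rows, numbers compared in muscle and in myoblasts in brackets) in muscle (circle) and in myoblasts against own-litter (filled square) or other-litter wild type (open square). The fasting list lies at 0.65 in muscle and at 0.05 and 0.29 in myoblasts, and the adult fast fibre list at -0.35 and at -2.08 and -1.54.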

How the data were processed

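Total RNA of 4 striated muscle samples, 2 per genotype, was sequenced, and 2 Lbr-knockout muscle samples and the myoblast samples were used for context. The authors deposited a table of FPKM values per gene with 1 column per group. The genome build was mm9, per the submitters' processing notes. The aligner, the program that computed FPKM, the gene models and how 2 samples were merged into a column are, in the sources used here, not given. All 7 value columns used were matched to a group by name, and 0 were left unmatched.

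Differences were taken as log2(FPKM + 1), knockout minus wild type, without further scaling, over genes that averaged 1 FPKM or more in the 3 muscle columns and were above 0 in both columns compared. A change was called at 2-fold, and the calculation was tested on simulated data. The planned limma test needs separate libraries and was not run. The genes named were the lamins, Lbr and Emd, the 12 largest changes in each direction with at least 5 FPKM in the higher column (small RNAs, predicted genes, pseudogenes and joined rows left out), and up to 5 changed and 5 abundant members of each list. Further list members, Slc27a1, Acta2 and the other genes named outside this rule were picked with their values in view. The comparison and the 52 gene lists were chosen with earlier results of these data known, and 6 lists were added after the values were seen. Of 1063 list entries, 3 were not matched to a row, and older symbols were matched through RefSeq synonyms.

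The table holds no counts. In 3286 genes with a single annotated transcript, steps in the low FPKM values put 1 FPKM of a 2 kb transcript at about 8.15 fragments in wild type and 6.18 in Lbr knockout. The steps in the Lmna-knockout column were too weak to read, so its depth is unknown and no counting interval is given. Alternatives were other pseudocounts, filters and scalings. Python 3.11.15, pandas 2.3.3, numpy 2.4.6 and matplotlib 3.10.9 were used.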

Additional observations from a re-analysis of the deposited data

How the results depend on the processing

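No paired analysis was possible because each muscle group has a single pooled column that carries no replicate number. For the same reason leaving out each replicate, limma and any error could not be run, and differences between the animals of a group are unknown.

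The counts of 233 rises and 92 falls depended on how low values were treated. With a pseudocount of 0.1 they were 535 and 190, with a pseudocount of 5 they were 71 and 27, and over genes averaging 5 FPKM or more they were 131 and 56. Without a filter they were 243 and 100, and with genes listed at 0 kept, 258 and 126. Restricting to genes with at least 5 FPKM in the higher column left 160 and 69, and leaving out small RNAs, predicted genes and pseudogenes left 195 and 67, both chosen after seeing the data. Of 358 genes followed, none changed direction past 2-fold under any of these or the scaling alternatives. Centring took 13 of them below 2-fold and quantile normalization 15. Among them were Per1, Zbtb16, Acacb, Zfp36, Ptprc, Lgals3 and Laptm5 (Per1, for example, was at 0.94 under both). Pvalb came within 2-fold under quantile normalization and not under centring. Of the 358, 44 were below 2-fold with a pseudocount of 5. The depth of the Lmna-knockout column is unknown, so the counting error of genes at a few FPKM could not be given.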

Other observations

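Further groups of genes were put together after the values were seen, so their counts describe and support nothing. Of 21 Asb and Klhl genes, substrate adaptors of cullin ubiquitin ligases that muscle expresses strongly, 4 rose and 0 fell (median 0.51). Asb11 was at 13.1 FPKM in wild-type muscle, 50.2 in Lmna knockout and 17.1 in Lbr knockout (log2 difference 1.86), and Klhl38 at 4.45, 17.1 and 6.53 FPKM (1.73). Of 22 genes of insulin receptor signalling and glucose uptake, 4 rose and 0 fell (median 0.37). Tbc1d4, which holds back glucose transporter traffic, went from 12.0 to 27.4 FPKM (1.13) and Pik3ip1, an inhibitor of PI3-kinase, from 4.92 to 12.6 FPKM (1.20). Prkag3, the AMP-activated protein kinase subunit of fast fibres, was the 1 of 7 subunit genes to change, at 28.7, 9.66 and 27.98 FPKM (-1.48). Of 7 MHC class II genes, 3 rose (median 0.86), and the median in Lbr knockout was higher, at 1.59. Among the 3, H2-Ob was at 0.449, 2.02 and 3.36 FPKM and passed the filter only through the knockout columns. Of 9 eosinophil granule genes listed, 7 were below the filter or at 0, among them Epx at 0.265 and 0.339 FPKM. The 2 compared rose, Prg2 from 0.953 to 6.59 FPKM (1.96) and Ear2 from 1.81 to 5.18 FPKM (1.14). Klhl34, Cblb and H2-Ob, counted as rises here, were within 2-fold after centring.

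Rows of near-identical chemokine genes moved in opposite directions, and how fragments were divided between such copies is not known. The chemokine copy Gm1987 was at 10.5 FPKM in wild type, 0.0820 in Lmna knockout and 0.0375 in Lbr knockout, while the joined row Ccl21a,Gm1987 was close to 0 in wild type and at 17.2 and 26.1 FPKM in the knockouts. These values were picked after they were seen.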
